A study of Mus musculus with 12 samples.

Results

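Levels of 10 genes that mark macrophages resident in bone marrow were followed across 4 groups of mouse marrow RNA-seq libraries. The genes are Adgre1, C1qa, C1qb, C1qc, Spic, Hmox1, Slc40a1, Cd163, Mertk and Axl. They were taken by symbol from the deposited tables and make up 10 of the 53801 genes listed there. Total RNA came from the marrow of C57BL/6N mice, and each group held 3 libraries. The MI-E group had myocardial infarction, with the LAD coronary artery tied off according to the treatment protocol, and received EMPA. MI mice had the infarction without EMPA, Sham-E mice were sham mice given EMPA, and Sham mice had neither. Age and sex, the EMPA dose and the time between surgery and sampling are not stated in the labels. They also do not tell whether the libraries of a group are separate mice, so p-values measure only the spread between these samples, which may be technical. Libraries are named by their group and the number in the deposited column, for example MI 3 or Sham-E 3.

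Resident macrophages of the marrow sit at the centre of erythroblastic islands, engulf the nuclei that maturing red cells expel, and break down old red cells and apoptotic leukocytes. Haem from engulfed cells is opened by haem oxygenase, and the iron set free is exported for reuse by new erythroblasts. The cells also make the C1q chains that bind dying cells, and carry receptors that recognise bridging proteins on apoptotic cells. Several of these genes are not restricted to macrophages: Adgre1, for example, is also carried by monocytes and eosinophils in the mouse. In RNA from whole marrow, fewer cells of a type and less RNA per cell cannot be told apart.

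The 3 C1q genes are neighbours on mouse chromosome 4, all on the minus strand of mm10: C1qb at chr4:136880129-136886187, C1qc at chr4:136889804-136893065 and C1qa at chr4:136895917-136898803. The other genes lie apart, with Adgre1 at chr17:57358691-57483527, Spic at chr10:88674772-88685015, Hmox1 at chr8:75093621-75100589 and Slc40a1 at chr1:45908068-45926523. Cd163 lies at chr6:124304656-124330527, Mertk at chr2:128698956-128802894 and Axl at chr7:25757273-25788705. None of the 10 genes shares exon bases with another gene in GENCODE M21. RefSeq promoter entries on GRCm38.p6 were matched by symbol for 6 of the 10 genes. Of these, 4 are printed: C1qb and C1qc, neighbours whose levels went together across libraries, and Axl and Spic, whose levels did so within groups. Over the 12 libraries Axl and Spic had Pearson's r of 0.58. Cd163 and Mertk, which are not printed, had r of 0.79 over the libraries and 0.84 within groups, so these correlations do not set the printed genes apart. Each printed run is the 250 bases before the transcript start of the RefSeq entry, read 5′ to 3′ on the gene's strand. By the gene positions given above, the Spic window lies inside the gene, and the C1qc window does so in part. Capitals mark GAGGAA or its reverse complement TTCCTC, the purine-rich core bound by macrophage Ets factors such as PU.1 and SpiC.
C1qb (chr4:136886201-136886450, minus strand): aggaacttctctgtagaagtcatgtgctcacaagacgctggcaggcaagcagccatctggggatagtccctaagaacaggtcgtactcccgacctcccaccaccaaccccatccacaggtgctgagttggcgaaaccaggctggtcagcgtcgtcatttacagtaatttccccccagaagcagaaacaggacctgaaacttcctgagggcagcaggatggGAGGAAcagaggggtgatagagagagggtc
C1qc (chr4:136892915-136893164, minus strand): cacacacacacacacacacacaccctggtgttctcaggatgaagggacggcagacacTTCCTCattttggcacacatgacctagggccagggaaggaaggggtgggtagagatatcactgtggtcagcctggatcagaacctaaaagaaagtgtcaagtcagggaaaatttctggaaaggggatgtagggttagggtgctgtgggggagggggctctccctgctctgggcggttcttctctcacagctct
Axl (chr7:25788734-25788983, minus strand): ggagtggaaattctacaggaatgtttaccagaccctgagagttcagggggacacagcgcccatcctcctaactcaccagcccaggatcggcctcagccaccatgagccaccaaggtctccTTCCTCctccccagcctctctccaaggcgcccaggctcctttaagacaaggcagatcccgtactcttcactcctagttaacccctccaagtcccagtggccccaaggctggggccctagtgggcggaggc
Spic (chr10:88683024-88683273, minus strand): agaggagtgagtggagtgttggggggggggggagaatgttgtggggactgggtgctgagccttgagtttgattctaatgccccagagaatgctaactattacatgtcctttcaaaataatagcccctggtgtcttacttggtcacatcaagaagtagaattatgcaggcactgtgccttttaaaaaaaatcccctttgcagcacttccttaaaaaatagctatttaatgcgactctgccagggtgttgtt
GAGGAA, searched on both strands, stood in the promoters of C1qb, C1qc and Axl but not in those of Spic, Cd163 and Mertk. Among all 32851 promoters of the same length in the RefSeq table, 23.3% held it. The second motif searched, TGACNNNGC on either strand, is the core of the antioxidant response element, and was in the C1qb promoter alone, against 10.2% of all promoters. The 2 motifs do not overlap in that promoter. These matches are letters in a window and not measured binding.

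Total counts per library ran from 21175087 to 24606783, and all 10 genes were kept by the filter on low counts, as were 15119 genes in all. Across genes, libraries of 1 group correlated at r of 0.981 to 0.985 in MI-E, 0.947 to 0.970 in MI, 0.945 to 0.981 in Sham-E and 0.985 to 0.987 in Sham. Within MI and Sham-E the libraries were therefore less alike. MI 3 stood apart in the genes described here, with the highest level of the 12 libraries in 7 of the 10. It also had the highest summed level of 20 erythroid genes, at 137700 TPM, against 21480 to 113400 TPM in the other 11 libraries, and the lowest sums of 16 mature neutrophil genes, at 90930 TPM, and of 16 monocyte genes, at 2375 TPM. TPM is the authors' value per transcript length, scaled to a common total. Results that rest on MI 3 are given with and without it.

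The genes differed widely in level. On the TPM scale, which allows for length, Hmox1 led with 177 to 515 TPM over the 12 libraries. The C1q chains followed, with C1qb at 98.7 to 247.6 TPM, C1qa at 74.9 to 131.7 TPM and C1qc at 64.8 to 119.7 TPM. Slc40a1 ran from 64.0 to 128.1 TPM and Axl from 21.6 to 59.6 TPM. Adgre1, Cd163 and Spic were lower, at 19.5 to 39.3, 13.1 to 40.5 and 8.87 to 24.5 TPM, and Mertk was lowest at 2.65 to 9.57 TPM. Added over the 10 genes, the level was 627, 646 and 748 TPM in MI-E libraries, 653, 717 and 1247 TPM in MI libraries, 657, 633 and 955 TPM in Sham-E libraries, and 805, 803 and 735 TPM in Sham libraries. Only MI 3 and Sham-E 3 lay above the Sham libraries in that sum, and 2 of the 3 MI-E libraries were among the 3 lowest. On the 32 other tissue macrophage genes, all of them at 1 TPM or more in some library, summed levels were 2388 to 2634 TPM in MI-E, 2283 to 2654 TPM in MI, 1954 to 2790 TPM in Sham-E and 1860 to 2112 TPM in Sham.

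**Figure D1:**
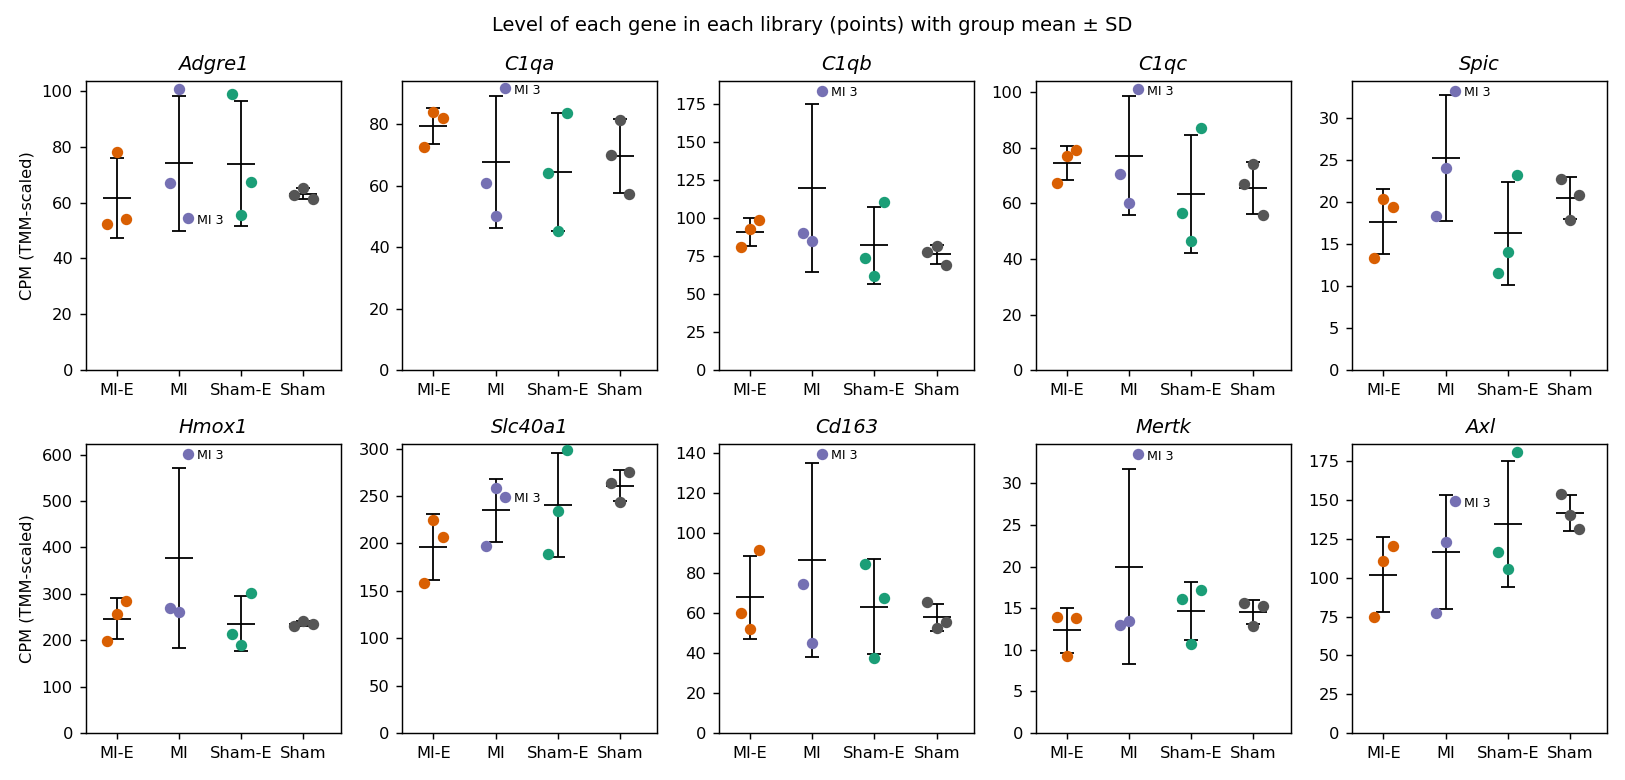
Level of each of the 10 genes in each of the 12 libraries, in CPM (counts scaled to a common library total by TMM), with a panel per gene; points are libraries, and bars are the group mean ± SD of 3 libraries. MI 3 is named in every panel; it is the highest point for 7 genes, reaching 602 CPM for Hmox1, while it ranks 5, 3 and 10 of the 12 for Slc40a1, Axl and Adgre1.

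The C1q chains, encoded by C1qa, C1qb and C1qc, assemble into the recognition molecule of the classical complement pathway, and macrophages are their main source. C1qb stood at 80.8, 92.9 and 98.6 CPM in MI-E libraries, 90.4, 85.2 and 184 CPM in MI libraries, 73.5, 62.2 and 110.4 CPM in Sham-E libraries, and 77.7, 81.4 and 69.5 CPM in Sham libraries. CPM is a count scaled by the library's total after TMM normalisation. All 3 MI libraries lay above all 3 Sham libraries, with MI 3 far above the other 2, and the other pairs of groups overlapped. In MI libraries the mean was 120 ± 55 CPM, against 76.2 ± 6.1 CPM in Sham libraries (SD, n = 3 each), a log2 fold change of 0.65 ± 0.28 (SE; 95% interval 0.05 to 1.26) with an adjusted p of 0.224 by edgeR's quasi-likelihood test. Without MI 3 the log2 fold change was 0.20. C1qa, by contrast, stood at 72.6, 83.8 and 81.8 CPM in MI-E libraries, 60.9, 50.2 and 91.7 CPM in MI libraries, 64.1, 45.2 and 83.6 CPM in Sham-E libraries, and 70.0, 81.3 and 57.2 CPM in Sham libraries. Its groups all overlapped, and its log2 fold change was -0.04 ± 0.24 (SE) for MI over Sham and 0.23 ± 0.24 for MI-E over MI, or -0.32 and 0.52 without MI 3. C1qc, the third chain, stood at 67.4, 76.9 and 79.0 CPM in MI-E libraries, 70.4, 60.1 and 101 CPM in MI, 56.4, 46.6 and 87.1 CPM in Sham-E, and 66.8, 74.2 and 55.7 CPM in Sham, again with overlap between every pair of groups. For MI over Sham its log2 fold change was 0.23 ± 0.23, with an edgeR adjusted p of 0.608, and without MI 3 it was -0.01.

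The ratios of C1qb and C1qc to C1qa set the MI libraries apart, and that of C1qb to C1qc did not. These ratios were chosen after the values were seen and are given as a description, with no test. The C1qb to C1qa ratio of TPM was 1.05, 1.04 and 1.13 in MI-E libraries, 1.40, 1.60 and 1.89 in MI libraries, 1.08, 1.29 and 1.24 in Sham-E libraries, and 1.04, 0.942 and 1.14 in Sham libraries. Every MI library lay above every library of the other 3 groups, MI 3 highest. In the C1qc to C1qa ratio the MI libraries were again the highest, at 0.955, 0.990 and 0.912, against 0.757 to 0.797 in MI-E, 0.727 to 0.862 in Sham-E and 0.752 to 0.802 in Sham. These orders of the MI libraries did not rest on MI 3. The C1qb to C1qc ratio was 1.37, 1.38 and 1.42 in MI-E libraries, 1.46, 1.61 and 2.07 in MI libraries, 1.48, 1.52 and 1.44 in Sham-E libraries, and 1.33, 1.25 and 1.42 in Sham libraries. There MI 1 lay among the Sham-E libraries, and MI 3 was far the highest. The same MI libraries stood apart in a property of the library: the mean fragment length implied by the deposited counts and TPM was 263.3 to 265.1 bases in MI, against 280.2 to 282.7 in MI-E, 271.1 to 280.3 in Sham-E and 284.1 to 286.9 in Sham. Genes with over 60% GC also ran lower than genes under 45% GC in MI 2 and MI 3, by -0.55 and -0.53 on the log2 scale, while MI 1 was at 0.15 and the MI-E libraries at 0.30 to 0.35. The longest C1qa transcript has 1040 bases and 59.5% GC, and that of C1qb has 1088 bases and 57.4% GC. That of C1qc has 1203 bases and 57.5% GC. The part of fragment length and GC content in the ratios was not tested. A fit corrected for GC content and transcript length was chosen after seeing the data. In it the log2 fold change of C1qa was -0.22 for MI-E over MI and 0.12 for MI over Sham, opposite in sign to the values above. C1qb was at -0.77 and 0.75 there in the same comparisons, and C1qc was at -0.39 and 0.31. The correction did not cover fragment length. The adjusted p of the 3 chains in that fit ran from 0.224 to 0.842.

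**Figure D2:**
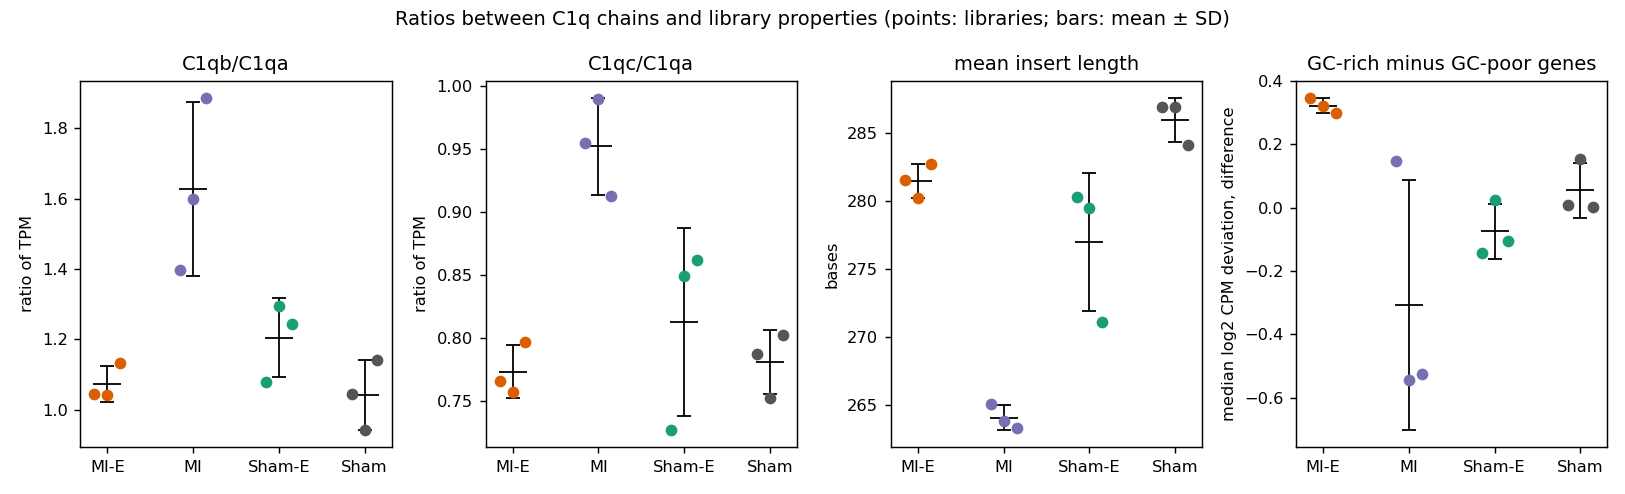
The C1qb to C1qa and C1qc to C1qa ratios of TPM, the mean fragment length in bases, and the median log2 CPM deviation of GC-rich genes minus that of GC-poor genes, for each library (points) with group mean ± SD of 3 libraries. MI libraries are the highest in both ratios, at 1.40 to 1.89 and 0.912 to 0.990, and the lowest in fragment length, at 263.3 to 265.1 bases.

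Among genes of haem and iron handling, Hmox1 encodes haem oxygenase 1, which opens the haem ring. It stood at 197, 257 and 283 CPM in MI-E libraries, 269, 261 and 602 CPM in MI libraries, 212, 190.4 and 302 CPM in Sham-E libraries, and 230.2, 242 and 235 CPM in Sham libraries. All 3 MI libraries were above all 3 Sham libraries, MI 1 and MI 2 only just, while MI 3 had 1.99 times the next highest of the 12. For MI over Sham the log2 fold change was 0.68 ± 0.30 (SE; 95% interval 0.04 to 1.32; edgeR adjusted p = 0.231), and without MI 3 it was 0.17. For MI-E over MI it was -0.62 ± 0.30 (adjusted p = 0.302), and without MI 3 it was -0.11. Hmox1, C1qb and C1qc were each highest in the same 3 libraries, MI 3, Sham-E 3 and MI-E 4. These were also the 3 libraries with the highest summed erythroid level, at 137700 TPM in MI 3, 100100 TPM in Sham-E 3 and 113400 TPM in MI-E 4. All 20 erythroid genes were measured. Group ranges of their summed level were 67140 to 113400 TPM in MI-E, 41480 to 137700 TPM in MI, 21480 to 100100 TPM in Sham-E and 62750 to 85390 TPM in Sham. MI 3, Sham-E 3 and MI-E 4 also had the 3 lowest sums of NRF2 and BACH1 targets, at 3380, 3444 and 3465 TPM. Their sums of complement genes were the 3 lowest too, at 1338, 1495 and 1391 TPM. The part of any of these lists in the levels of Hmox1, C1qb and C1qc was not tested.

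Spic, an Ets-family transcription factor that haem induces and that red-pulp and marrow macrophages need, stood at 13.3, 20.4 and 19.4 CPM in MI-E libraries, 18.4, 24.1 and 33.3 CPM in MI, 11.6, 14.1 and 23.3 CPM in Sham-E, and 22.7, 17.9 and 20.9 CPM in Sham. MI 3 was the highest and Sham-E 1 the lowest, and every pair of groups overlapped. Its log2 fold change was 0.30 ± 0.28 for MI over Sham, -0.51 ± 0.28 for MI-E over MI (edgeR adjusted p = 0.354) and -0.33 ± 0.28 for Sham-E over Sham; without MI 3 the first was 0.05 and the second -0.26. Slc40a1 encodes ferroportin, the iron exporter. It stood at 158, 224 and 207 CPM in MI-E libraries, 197, 259 and 249 CPM in MI, 189, 234 and 298 CPM in Sham-E, and 264, 244 and 275 CPM in Sham. The order of its means ran Sham, Sham-E, MI and MI-E from the highest down, and all 3 MI-E libraries were below all 3 Sham libraries, a pair of groups that differ in both surgery and EMPA, so that these cannot be told apart. Neighbours in that order overlapped. Its log2 fold change was -0.26 ± 0.19 for MI-E over MI, -0.15 ± 0.19 for MI over Sham and -0.29 ± 0.19 for MI-E over Sham-E, the last with an edgeR adjusted p of 0.501.

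Cd163 encodes the receptor through which macrophages take up haemoglobin. Its levels were 59.9, 51.8 and 91.2 CPM in MI-E libraries, 74.6, 44.7 and 139 CPM in MI, 84.1, 37.5 and 67.4 CPM in Sham-E, and 65.3, 52.2 and 55.3 CPM in Sham. The spread within MI covered more than 3-fold, from MI 2 to MI 3, and contained the whole Sham range. Of the 10 genes Cd163 was the least precisely measured, with a log2 fold change of 0.58 ± 0.39 for MI over Sham (95% interval -0.29 to 1.45; edgeR adjusted p = 0.441) that was 0.05 without MI 3.

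Mertk and Axl encode receptor tyrosine kinases that bind the bridging proteins Gas6 and, for Mertk, protein S, on dying cells. Mertk stood at 13.96, 9.24 and 13.8 CPM in MI-E libraries, 12.98, 13.5 and 33.5 CPM in MI, 16.1, 10.7 and 17.1 CPM in Sham-E, and 15.6, 12.9 and 15.2 CPM in Sham. MI 3 had 1.95 times the next highest library, and the other 11 libraries of Mertk overlapped from group to group. Its log2 fold change for MI-E over MI, -0.69 ± 0.34 (95% interval -1.43 to 0.04; edgeR adjusted p = 0.307), was the largest in size of the 10 in that comparison, and without MI 3 it was -0.10. For MI over Sham it was 0.46 ± 0.33, and without MI 3 it was -0.14. Axl stood at 74.7, 110.6 and 121 CPM in MI-E libraries, 77.2, 123 and 149 CPM in MI, 117, 106 and 181 CPM in Sham-E, and 154, 140.2 and 131 CPM in Sham. Like Slc40a1, it had its means in the order Sham, Sham-E, MI and MI-E, with all 3 MI-E libraries below all 3 Sham libraries and overlap between neighbours. These 2 were the only members to lie lower in MI-E than in Sham without overlap, as did 17.1% of all genes tested. The log2 fold change was -0.40 ± 0.26 for MI-E over Sham-E (edgeR adjusted p = 0.513) and -0.28 ± 0.26 for MI over Sham. On the TPM scale Axl stood at 23.5, 28.7 and 34.0 TPM in MI-E libraries and 37.2, 39.4 and 59.6 TPM in Sham-E libraries. These groups overlapped in CPM, and the share of all genes without overlap in TPM was not counted. On log2(TPM + 1) limma gave -0.63 for MI-E over Sham-E, with an adjusted p of 0.275. The median of all genes tested was itself -0.13 on that scale.

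Adgre1 encodes F4/80, an adhesion receptor used as a marker of mouse macrophages. It stood at 52.5, 78.0 and 54.0 CPM in MI-E libraries, 66.9, 101 and 54.3 CPM in MI, 98.9, 55.6 and 67.4 CPM in Sham-E, and 62.6, 65.3 and 61.4 CPM in Sham. Its highest libraries, MI 2 and Sham-E 1, were not the highest for any other of the 10 genes, and MI 3 ranked 10 of 12. The log2 fold change was 0.23 ± 0.25 for MI over Sham, 0.23 ± 0.25 for Sham-E over Sham and -0.27 ± 0.25 for MI-E over MI. Single libraries set these signs: without MI 2 the values were -0.06 for MI over Sham and 0.02 for MI-E over MI, and without Sham-E 1 the value for Sham-E over Sham was -0.04. MI 2 and Sham-E 1 also had the 2 highest sums of mature neutrophil genes, at 165300 and 164700 TPM. All 16 genes of that list were measured, with group ranges of 107900 to 154100 TPM in MI-E, 90930 to 165300 TPM in MI, 119900 to 164700 TPM in Sham-E and 125000 to 135200 TPM in Sham. MI 2 and Sham-E 1 had the 2 highest sums of complement genes too, at 2293 and 2487 TPM, and of NRF2 and BACH1 targets, at 4627 and 4432 TPM. Their erythroid sums were the 2 lowest, at 41480 and 21480 TPM. Sham-E 1 had the lowest eosinophil sum, at 2949 TPM, while MI 2 was at 4818 TPM. The monocyte sum was highest in Sham-E 1, at 4020 TPM, and was 3405 TPM in MI 2, below MI 1 and Sham-E 2. The part of any of these genes in the level of Adgre1 was not tested.

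The effect of infarction alone was asked by setting MI against Sham. No member of the group of 10 passed an adjusted p of 0.05 by edgeR's quasi-likelihood test, where 63 of 15119 genes, 0.417%, did. At an unadjusted p under 0.05 there were 2 members, C1qb and Hmox1, against 19.5% of all genes tested. Among all genes DESeq2 called 982 of 24952 and limma-voom 46 of 15119, and neither called any of the 10. C1qb and Hmox1 were also the 2 whose libraries did not overlap, both higher in MI, where 13.4% of all genes were higher without overlap and 27.3% lay apart in either direction. Fold changes were above 0 in 7 genes and below 0 in C1qa, Slc40a1 and Axl, with a median of 0.27 on the log2 scale, against 0.02 over all genes tested. The 5 whose log2 fold change was 0.30 or more, Hmox1, C1qb, Cd163, Mertk and Spic, were also those in which MI 3 exceeded the median of the other 11 libraries the most, by 1.71 to 2.49 times. Without MI 3 these 5 had log2 fold changes of -0.14 to 0.20, 5 of the 10 members were above 0 and 5 below, and the members' median was 0.02. Axl at -0.50, Adgre1 at 0.41 and C1qa at -0.32 lay further from 0 without it. Over all genes, 7 passed without MI 3.

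**Figure D3:**
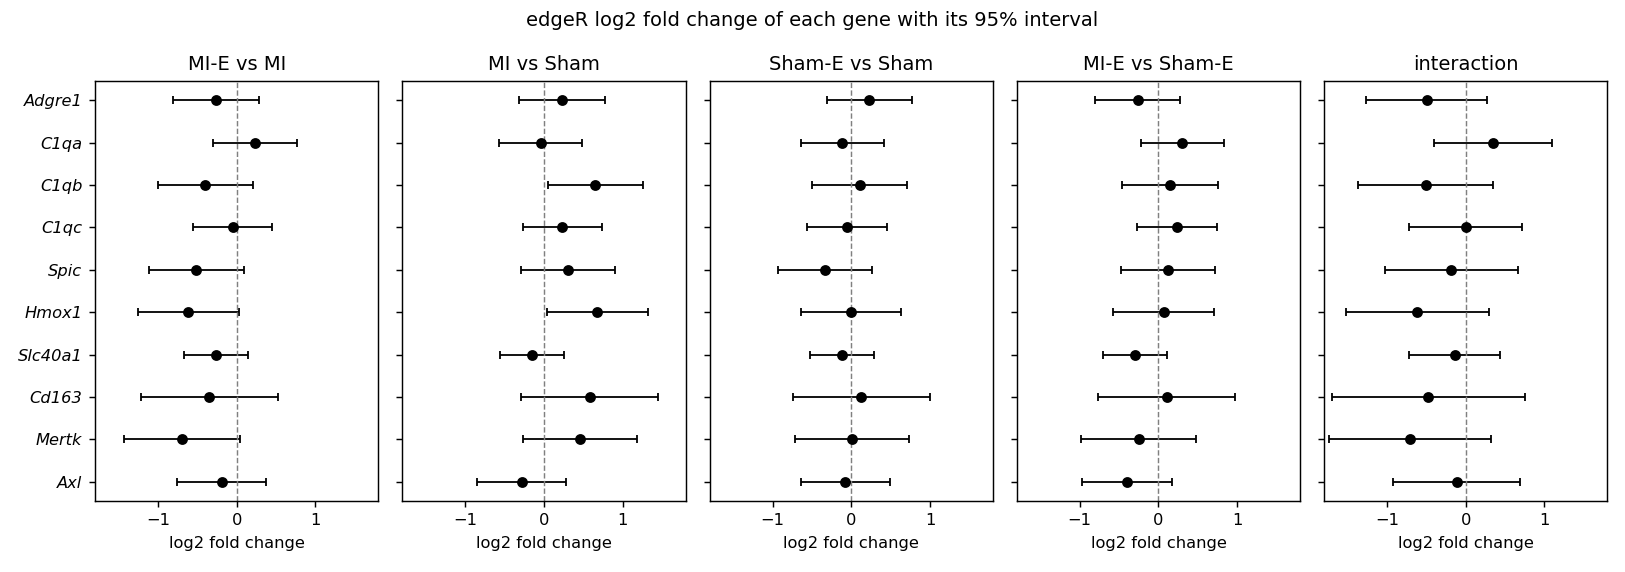
edgeR log2 fold change of each of the 10 genes in the 5 comparisons, with 95% intervals, from 12 libraries; the interaction is the MI-E over MI difference minus the Sham-E over Sham difference. The intervals of C1qb and Hmox1 for MI over Sham, 0.05 to 1.26 and 0.04 to 1.32, are the ones that leave out 0, and no adjusted p is under 0.05.

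What EMPA was followed by in infarcted mice was asked by setting MI-E against MI. Of the 10 genes, 9 had fold changes below 0 and C1qa alone was above it, with a median of -0.31 on the log2 scale, against -0.02 over all genes tested. No member passed the adjusted p of 0.05 by edgeR, where 1 gene of 15119, 0.00661%, did, and none had an unadjusted p under 0.05, against 17.4% of all genes. DESeq2 and limma-voom called no member either, where they called 490 of 24952 genes and 1 of 15119 genes. The groups overlapped in all 10 genes, whereas 21.7% of genes tested did not overlap. The members furthest from 0 after Mertk were Hmox1 at -0.62 and Spic at -0.51. Because MI serves both as the reference here and as the group compared with Sham, the MI 3 library enters the 2 comparisons with opposite sign. Without it the log2 fold changes of MI-E over MI were -0.11 for Hmox1, -0.10 for Mertk, 0.05 for C1qb and 0.18 for Cd163. Others lay further from 0 without it, C1qa at 0.52, against 0.23 with it, and Adgre1 at -0.45, against -0.27. C1qa was then the 1 member with an unadjusted p under 0.05 by edgeR, as had 2613 of the 15452 genes tested in that fit. Its adjusted p was 0.284. The members then divided into 5 above 0 and 5 below, with a median of -0.04.

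In sham mice given EMPA the fold changes over Sham ran from -0.33 for Spic to 0.23 for Adgre1 on the log2 scale, 4 above 0 and 6 below, with a median of -0.03, against 0.01 over all genes. The value of Spic rested on single libraries, at -0.68 without Sham-E 3 and -0.14 without Sham-E 1. edgeR called none of the 10 genes and 0.0% of all genes, and no member had an unadjusted p under 0.05, against 1.9% of all genes. Among all genes DESeq2 called 2 of 24952 and limma-voom 0 of 15119, and they called no member. Neither did any member's Sham-E libraries lie clear of its Sham libraries, where 8.98% of genes did. The 3 Sham-E libraries differed among themselves. Sham-E 2 was the lowest of the 12 in C1qa, C1qb, C1qc, Hmox1 and Cd163, while Sham-E 3 was the highest in Slc40a1 and Axl and the second highest in C1qb, C1qc, Hmox1 and Mertk. Infarction under EMPA was asked by setting MI-E against Sham-E, where the members ran from -0.40 for Axl to 0.30 for C1qa, 6 above 0 and 4 below, with a median of 0.08 against 0.00 over all genes. edgeR called none of the 10 and 0.0% of all genes there, and none had an unadjusted p under 0.05 against 13.4% of genes. DESeq2 and limma-voom called none of the 10, where they called 135 of 24952 genes and 0 of 15119 genes. All 10 overlapped between MI-E and Sham-E, where 23.9% of genes did not.

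Whether the EMPA difference itself depended on infarction was asked by the interaction. It was below 0 in 9 of the 10 genes, with a median of -0.33 against -0.04 over all genes tested. Mertk, at -0.71 ± 0.47 (SE; edgeR adjusted p = 0.519), and Hmox1, at -0.61 ± 0.42 (adjusted p = 0.522), were furthest from 0. Without MI 3 the interaction was above 0 in 5 members and below in 5, with a median of -0.0019. No member passed, where 0.00661% of genes did, and none reached an unadjusted p of 0.05, against 13.5% of genes. DESeq2 and limma-voom called no member, where they called 140 of 24952 genes and 0 of 15119 genes. The 95% intervals reached 0.41 to 0.87 on the log2 scale to either side of a fold change between 2 groups, and 0.57 to 1.23 for the interaction. Differences within those widths were not detectable with 3 libraries a group. The intervals are not adjusted for the number of genes tested, so larger differences could be missed too. C1qb and Hmox1 for MI over Sham lay beyond their widths, at adjusted p of 0.224 and 0.231 by edgeR.

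Within the 10 genes, some levels went together from library to library. Correlations were taken on log2 CPM for all 45 pairs over the 12 libraries, with 100000 permutations and Benjamini-Hochberg adjustment over the pairs, and 11 pairs had an adjusted p under 0.05 by Pearson's r, 7 by Spearman's rho and 6 by both. C1qb and Hmox1 had Pearson's r of 0.96 (permutation p = 1e-05, the smallest the permutations can give; adjusted 0.00023) and Spearman's rho of 0.92 (permutation p = 0.00013; adjusted 0.0019). Leaving out Sham-E 2 and MI 3, the libraries farthest from the median of C1qb, r was 0.81. The neighbours C1qa and C1qc had r of 0.90 (permutation p = 7e-05; adjusted 0.001) and rho of 0.91 (permutation p = 7e-05; adjusted 0.0016), and r of 0.88 without Sham-E 2 and MI 2. Slc40a1 and Axl had r of 0.84 (permutation p = 0.00062; adjusted 0.0046) and rho of 0.84 (permutation p = 0.0012; adjusted 0.013), and r of 0.83 without Sham-E 1 and MI-E 2. Taken as deviations from group means, these 3 pairs had r of 0.97, 0.97 and 0.80, and Axl and Spic had 0.90. Over the 12 libraries Axl and Spic had r of 0.58 (permutation p = 0.045, adjusted 0.11). Libraries share depth and cell makeup across all pairs, so these are descriptions of the samples.

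Other pairs rested on few libraries. Hmox1 and Mertk had r of 0.78 (permutation p = 0.026; adjusted 0.078) but rho of 0.29 (permutation p = 0.37; adjusted 0.59), and without Sham-E 2 and MI 3 r was -0.08. Cd163 and Mertk had r of 0.79 (permutation p = 0.0039; adjusted 0.025) and rho of 0.69 (permutation p = 0.016; adjusted 0.072), and r of 0.40 without those 2 libraries. Of the 11 pairs, 3 others fell to an r under 0.5 without Sham-E 2 and MI 3: C1qb and Cd163 went to 0.20, Hmox1 and Cd163 to 0.10, and C1qb and Spic to 0.39. Adgre1 went with none of the other 9 genes, with r between -0.27 and 0.09. C1qc and Hmox1 had r of 0.80 (permutation p = 0.00062; adjusted 0.0046) and rho of 0.81 (permutation p = 0.0023; adjusted 0.021), and r of 0.64 without Sham-E 2 and MI 3. Spic correlated both with Hmox1, at r of 0.81 (permutation p = 0.00051; adjusted 0.0046) and rho of 0.69 (permutation p = 0.016; adjusted 0.072), and with Slc40a1, at r of 0.68 (permutation p = 0.016; adjusted 0.055) and rho of 0.77 (permutation p = 0.0047; adjusted 0.03). Without Sham-E 1 and MI 3 these r were 0.75 and 0.73.

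**Figure D4:**
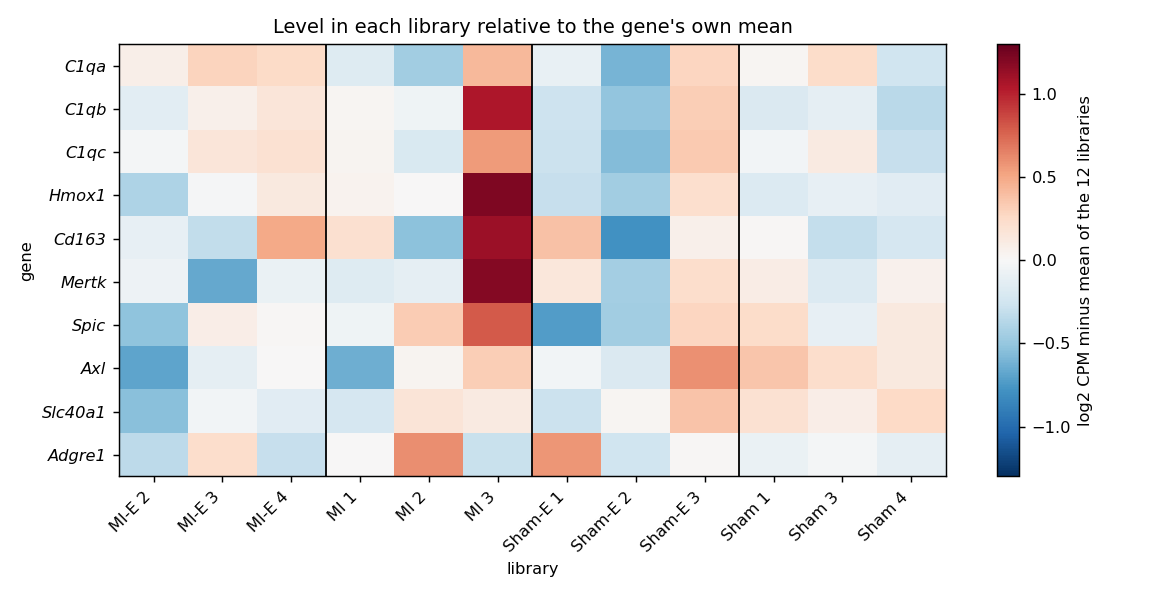
Level of each gene in each library as log2 CPM minus the gene's mean over the 12 libraries, with libraries in columns by group (MI-E, MI, Sham-E, Sham) and genes in rows. The MI 3 column is the darkest red for C1qb, Hmox1, Cd163 and Mertk, and the Adgre1 row has its highest cells in MI 2 and Sham-E 1.

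The genes whose levels were most like each member's over the 12 libraries were taken by Pearson's r, as a description with no p. Candidates were the genes tested, leaving out members, genes under a floor in mean log2 CPM and symbols of the Gm or Rik kind. For each member 3 were taken, and the closest is named here. Slc40a1 was closest to Timd4, a receptor for phosphatidylserine on resident macrophages, with r of 0.94. Cd163 was closest to Acsl1, which activates fatty acids, with r of 0.92. C1qc was closest to Fcgrt, which encodes the neonatal Fc receptor, with r of 0.92, and C1qb to Glul, which encodes glutamine synthetase, with r of 0.94. For Hmox1 the closest was Wdr26, with r of 0.95, for Spic Zfand6 with 0.94 and for Mertk Nemf with 0.95. Adgre1 was closest to Tuba1a, an alpha-tubulin, with r of 0.95, Axl to Hspa4l with 0.91 and C1qa to Mrps31 with 0.87. The best of so many genes over 12 libraries is high by selection, and the libraries share depth and cell makeup.

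Genes of the same pathways and of the same cells gave few calls by edgeR. Of 25 measured genes of the complement cascade, 31 of the clearance of dying cells, 25 of haem and iron handling, 24 targets of NRF2 and BACH1 and 32 other tissue macrophage genes, none rose or fell past an adjusted p of 0.05 in any of the 5 comparisons. For MI over Sham, 23 of the 32 other macrophage genes were above 0, with a median log2 fold change of 0.23. Nearest the threshold among them were Il18bp, which encodes a binding protein of interleukin-18, at 0.83 ± 0.20 (adjusted p = 0.0688), and Msr1, a scavenger receptor, at 1.02 ± 0.30 (adjusted p = 0.105). For MI-E over MI, 25 of the 32 were below 0, with a median of -0.16. Without MI 3 these counts were 19 above 0 for MI over Sham and 21 below 0 for MI-E over MI. Medians for MI over Sham were 0.24 for the complement cascade, 0.15 for clearance, 0.15 for haem and iron handling and 0.04 for NRF2 and BACH1 targets, against 0.02 over all genes. Without MI 3 they were 0.30 for the complement cascade, 0.08 for clearance, -0.03 for haem and iron handling, 0.03 for NRF2 and BACH1 targets and 0.14 for the other macrophage genes. Cd300lf, a receptor on myeloid cells that binds phosphatidylserine, averaged 275 CPM in MI libraries and 136 CPM in Sham libraries, with an adjusted p of 0.0703. Flvcr1, which exports haem, had a log2 fold change of 0.59 ± 0.13 in the same comparison, with an adjusted p of 0.0625. Itgav, the alpha-v integrin chain used in engulfment, averaged 21.6 CPM over MI-E libraries and 37.5 CPM over MI libraries, at -0.79 ± 0.18 and an adjusted p of 0.107.

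Markers of other marrow cells were measured beside these genes. For MI over Sham, 3 of 16 mature neutrophil genes rose by edgeR, namely Wfdc21, Fpr2 and Fpr1, the last 2 encoding formyl peptide receptors, and 1 of 20 genes of stroma and endothelium fell, Bglap, which encodes the osteoblast product osteocalcin, at -3.47 ± 0.62 with an adjusted p of 0.037. Bglap averaged 0.31 CPM in MI libraries, 0.37 CPM in Sham-E libraries and 3.51 CPM in Sham libraries. Its log2 fold change for Sham-E over Sham was -3.25 ± 0.60, so it was also low in sham mice given EMPA, though it did not pass there. Without MI 3 the 3 neutrophil genes passed again, and Bglap, at -3.67, had an adjusted p of 0.0904. None of the measured genes of monocytes (16), erythroid cells (20), eosinophils (10), osteoclasts (9) or dendritic cells (15) passed in any of the 5 comparisons, and none of the neutrophil or stromal genes passed in the other 4. Eosinophil genes summed to 5657 to 8908 TPM in MI-E, 4427 to 5381 TPM in MI, 2949 to 4310 TPM in Sham-E and 5115 to 5881 TPM in Sham, and monocyte genes to 2812 to 3342 TPM in MI-E, 2375 to 3919 TPM in MI, 2480 to 4020 TPM in Sham-E and 2545 to 3033 TPM in Sham. Stromal and endothelial genes summed to 159 to 241 TPM in MI-E, 106 to 151 TPM in MI, 96.2 to 255 TPM in Sham-E and 169 to 257 TPM in Sham, so that the MI libraries lay below those of MI-E and of Sham. Dendritic cell genes summed to 1806 to 2127 TPM in MI-E, 1371 to 1753 TPM in MI, 1695 to 2379 TPM in Sham-E and 1427 to 2112 TPM in Sham, with MI below MI-E again. Osteoclast genes summed to 844 to 924 TPM in MI-E, 779 to 1196 TPM in MI, 754 to 1001 TPM in Sham-E and 762 to 866 TPM in Sham. Of the osteoclast list, Dcstamp, Calcr and Ocstamp stayed under 1 TPM in every library. Xcr1 of the dendritic cell list and Pdgfra and Sp7 of the stromal list did so too. The part of any of these cells in the levels of the 10 genes was not tested.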

How the data were processed

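Marrow RNA of 12 libraries, 3 per group, was analysed from 2 tables deposited by the authors: expected counts per gene, as RSEM estimates them, unscaled, and TPM values, scaled by RSEM for transcript length and to a common total. CASAVA 1.8, STAR 2.4.0j and RSEM are the tools, and mm10 the build, named in the submitters' processing notes; strandedness is not given in the sources used here. Sham columns are numbered 1, 3 and 4 and MI-E columns 2, 3 and 4 while sample titles run from 1 to 3, so those 2 groups' columns were matched to their group only.

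Expected counts were rounded. Genes were kept by filterByExpr and tested in 1 fit of edgeR 4.0.16 (R 4.3.3; TMM, quasi-likelihood, robust) to all 12 libraries with a mean per group, with Benjamini-Hochberg adjustment over 15119 genes. Depth ran from 21175087 to 24606783 counts, and 53706 of 53801 IDs are in GENCODE M21. Alternatives used DESeq2 1.42.0, limma 3.58.1, other scalings and filters, log2(TPM + 1 or 0.1), only the groups compared, omission of haemoglobin and mitochondrial genes, omission of each library, and a GC and length correction chosen after seeing the data. Fragment length was fitted to the length offsets that counts and TPM imply in 418 genes with a single transcript.

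The 10 genes, the 12 lists (239 genes, 15 of them in more than 1 list) and the rules were chosen with earlier results of these data known. By rule the text names all 10 genes, the genes most like each, and the list genes past or nearest the threshold. Lists covered complement, clearance of dying cells, haem and iron, NRF2 and BACH1 targets, other macrophage genes, monocytes, erythroid cells, eosinophils, stroma and endothelium, osteoclasts, mature neutrophils and dendritic cells.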

Additional observations from a re-analysis of the deposited data

How the results depend on the processing

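No member passed an adjusted p of 0.05 in any comparison under any of the 23 alternatives, 12 of which left out a library. The lowest member adjusted p was 0.166 with all libraries and 0.115 with a library left out. No paired analysis was possible because the numbers of the Sham and MI-E columns do not match the sample titles, so columns carry no pairing. The interaction was not fitted from the compared groups alone, since it needs all 4.

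Of 540 member values under settings other than leaving out a library, 28 turned sign, and most of these lay within 0.15 of 0; the cause was not tested. With GC and length corrected, C1qa was at -0.22 for MI-E over MI, 0.12 for MI over Sham, -0.075 for MI-E over Sham-E and -0.19 in the interaction. With the same correction C1qb was at -0.19, C1qc at -0.089 and Hmox1 at -0.14 for MI-E over Sham-E. For Sham-E over Sham it gave C1qc 0.0060, Hmox1 0.0087 and Mertk -0.0066, and in the interaction Spic 0.017 and Slc40a1 0.097. On log2(TPM + 1) and log2(TPM + 0.1), MI-E over Sham-E was -0.0155 and -0.0154 for C1qb, -0.12 and -0.12 for Spic, -0.12 and -0.12 for Hmox1, and -0.095 and -0.099 for Cd163. There the median of all genes was -0.13 and -0.17, and for MI over Sham it was -0.11 and -0.15. Mertk for Sham-E over Sham was -0.0003 with upper-quartile factors, -0.024 with limma-voom, and -0.0029 and -0.0073 on the 2 TPM scales. The C1qc interaction was 0.034 with upper-quartile factors, 0.072 with limma-voom, and 0.049 and 0.050 on the 2 TPM scales.

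Leaving out each library in turn turned the sign of 49 of 600 member values. For MI-E over MI the lowest and highest values were Adgre1 -0.47 to 0.022, C1qb -0.59 to 0.048, C1qc -0.20 to 0.19, Cd163 -0.66 to 0.18 and Axl -0.42 to 0.027. For MI over Sham the lowest and highest values were Adgre1 -0.059 to 0.41, C1qa -0.32 to 0.13, C1qc -0.0089 to 0.38 and Mertk -0.14 to 0.69. For Sham-E over Sham the lowest and highest values were Adgre1 -0.037 to 0.39, C1qa -0.35 to 0.079, C1qb -0.17 to 0.26, C1qc -0.35 to 0.12, Hmox1 -0.23 to 0.12, Slc40a1 -0.30 to 0.029, Cd163 -0.14 to 0.38, Mertk -0.12 to 0.18 and Axl -0.35 to 0.061. For MI-E over Sham-E the lowest and highest values were Adgre1 -0.47 to 0.0002, C1qb -0.023 to 0.42, Spic -0.075 to 0.46, Hmox1 -0.069 to 0.29 and Cd163 -0.17 to 0.37. In the interaction the lowest and highest values were C1qc -0.16 to 0.30, Spic -0.37 to 0.17, Slc40a1 -0.29 to 0.043, Cd163 -0.79 to 0.054 and Axl -0.34 to 0.16.

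Counts of all genes past the threshold varied widely. Leaving out a library gave 1 to 988 genes for MI-E over MI, 1 to 1224 for MI over Sham, 0 to 117 for MI-E over Sham-E and 1 to 150 for the interaction, with 1224 and 117 without Sham-E 1 and 988 and 150 without MI 1; without MI 3 MI over Sham had 7. For MI-E over MI and MI over Sham the counts were 33 and 156 with no filter, 490 and 982 with DESeq2, 50 and 282 on log2(TPM + 1), 67 and 269 on log2(TPM + 0.1), and 3 and 344 from the groups compared alone. With GC and length corrected MI over Sham had 103. DESeq2 gave 2 for Sham-E over Sham, 135 for MI-E over Sham-E and 140 for the interaction, which had 0 with limma-voom, 7 on log2(TPM + 1) and 14 on log2(TPM + 0.1). On log2(TPM + 1) 44 of the 282 genes for MI over Sham were higher, against 34 of 63 in edgeR.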
